A study of Homo sapiens with 12 samples.

Results

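Genes of bone morphogenetic protein (BMP) and activin signalling were followed in HK2 cells, an immortalised line derived from the human proximal tubule. The 10 members were ID1, ID2, ID3, ID4, BMP2, BMP4, GREM1, INHBA, FST and SMAD6, chosen by symbol, and they are 10 of the 62703 Ensembl genes in the deposited tables. The 12 RNA libraries fall into 4 groups of 3. NG cells carried a control vector and were kept in 5.5 mM glucose, and HG cells were kept in 50 mM glucose. The si-FGF9 cells received siRNA against FGF9 in 5.5 mM glucose, and the HG+OE-FGF9 cells received an FGF9 overexpression vector in 50 mM glucose. All groups were HK2 cells grown in serum. No non-targeting siRNA control is described in the study's text, so siRNA transfection itself and loss of FGF9 cannot be told apart in si-FGF9 versus NG. It also gives 2 accounts of the NG medium, 1 of them with mannitol. It describes no control vector for HG, so vector delivery cannot be told apart from glucose in HG versus NG. Nor can vector delivery be told apart from FGF9 itself in HG+OE-FGF9 versus HG. The study asked how high glucose and FGF9 change these cells, and it compared HG with NG, si-FGF9 with NG, and HG+OE-FGF9 with HG.

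BMPs and activins are secreted ligands of the TGF-beta superfamily. They bind pairs of receptor kinases that phosphorylate SMAD proteins, which enter the nucleus with SMAD4 and switch target genes on or off. The ID genes are among the best known BMP targets, and their products bind E proteins and keep these transcription factors off DNA. In the kidney, BMP7 is known for limiting fibrosis and activin A for promoting it, and secreted inhibitors such as gremlin and follistatin hold the ligands back.

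BMP2, GREM1 and INHBA fell in HG versus NG and in si-FGF9 versus NG, with group means of 0.117 to 0.394 of the NG mean in TPM (transcripts per 1000000 transcripts, a level per length). Of these 3 genes, only GREM1 kept both calls under each of 3 other ways of scaling the libraries. FST, which encodes the activin inhibitor follistatin, had higher values outside NG in all 9 libraries, but its fold change was below the threshold on TPM as deposited. ID1 was the 1 member of 8 tested that was called in HG+OE-FGF9 versus HG, and it fell, with groups that overlapped and an adjusted p above 0.05. ID4 and BMP4 were listed below 1 TPM in every library and were not tested.

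FGF9, the targeted gene, was listed at 0 in all 9 libraries of NG, HG and si-FGF9. In the HG+OE-FGF9 libraries it had 3.34, 4.03 and 3.82 TPM. The overexpression is therefore visible in the RNA, whereas silencing could not be checked in these libraries against an NG level of 0. The study's RT-qPCR, a separate measure of the 4 groups, did detect FGF9 in NG. Its mean there was lower in HG and in si-FGF9, the latter without reaching the study's significance level. Each library had between 11549 and 13949 genes at 1 TPM or more, with 13795 to 13949 in NG and 11549 to 12013 in si-FGF9. HG had 12350 to 13111 and HG+OE-FGF9 had 13008 to 13236. The sequencing depth is unknown because TPM keep no record of it. Mitochondrial genes summed to between 49385 and 85968 TPM in si-FGF9 and to at least 113127 TPM in every other library. The libraries within NG correlated at 0.979 to 0.989 (Pearson's r of log2(TPM + 1) across genes). HG replicate 3 correlated with the other HG libraries at 0.926 and 0.951, and these 2 with each other at 0.980. HG+OE-FGF9 replicate 3 correlated with its group at 0.955 and 0.957, against 0.990 between replicates 1 and 2. Both libraries are given separately where a result rests on them. Small RNA genes summed to between 5275 and 16630 TPM in HG+OE-FGF9 and to at most 832.8 TPM elsewhere. Of the markers of the proximal tubule, LRP2 and CUBN were at or below 0.02 TPM and SLC22A6 was listed at 0 throughout, while GGT1 was between 71.65 and 195.31 TPM. The keratins KRT8 and KRT18 were at 210.71 TPM or more in every library, but CDH1 did not exceed 0.28 TPM. The 5 endothelial markers summed to at most 0.15 TPM, and the 5 immune markers to between 110.34 and 162.56 TPM, highest in HG+OE-FGF9. Nearly all of the immune sum was CD68, a lysosomal protein of macrophages that other cells also express, at 107.98 to 158.66 TPM, and CD14 reached 3.9 TPM. The leukocyte markers PTPRC and CD3E did not exceed 0.07 TPM each. The 7 fibroblast markers, mostly LUM, summed to 62.46 to 89.18 TPM in NG and to 11.63 to 41.01 TPM in the other groups. This was the direction of BMP2, GREM1 and INHBA, but it was not limited to fibroblast markers. EPCAM, an epithelial marker, was at 19.86 TPM or more in NG and at most 16.09 TPM in any other library. PAX8, a marker of the tubule lineage, was at 78.07 TPM or more in NG and at most 67.75 TPM elsewhere. By contrast, the means of KRT18 and GGT1 were lowest in NG, at 231.44 and 78.73 TPM. The part of these markers in the results for BMP2, GREM1 and INHBA was not tested. In these bulk samples, fewer cells of a type and less RNA per cell cannot be told apart.

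RefSeq promoter sequences were found for 9 of the 10 members, and BMP2 has none in the table. The 250 bases before the start are shown for ID1, the gene that fell in HG+OE-FGF9 versus HG, and for GREM1 and INHBA, which had the largest falls in the other comparisons. Coordinates are those of GRCh38.p14, and capitals mark matches on either strand to GGCGCC and GTCTG, letters bound by SMADs, to TATAAA, the TATA box, and to TGANTCA and TGACGTCA, bound by AP-1 and CREB factors.
ID1 (plus strand, chr20:31605039-31605288): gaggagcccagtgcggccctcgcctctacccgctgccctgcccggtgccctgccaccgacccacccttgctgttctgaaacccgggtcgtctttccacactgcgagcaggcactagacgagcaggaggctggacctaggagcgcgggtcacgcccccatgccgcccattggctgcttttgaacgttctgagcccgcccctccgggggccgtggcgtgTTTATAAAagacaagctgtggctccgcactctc
GREM1 (plus strand, chr15:32717754-32718003): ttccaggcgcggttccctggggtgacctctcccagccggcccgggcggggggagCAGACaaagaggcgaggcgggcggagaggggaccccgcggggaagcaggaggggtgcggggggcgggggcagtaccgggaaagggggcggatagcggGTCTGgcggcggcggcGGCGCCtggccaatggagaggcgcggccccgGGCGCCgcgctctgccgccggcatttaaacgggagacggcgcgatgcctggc
INHBA (minus strand, chr7:41703091-41703340): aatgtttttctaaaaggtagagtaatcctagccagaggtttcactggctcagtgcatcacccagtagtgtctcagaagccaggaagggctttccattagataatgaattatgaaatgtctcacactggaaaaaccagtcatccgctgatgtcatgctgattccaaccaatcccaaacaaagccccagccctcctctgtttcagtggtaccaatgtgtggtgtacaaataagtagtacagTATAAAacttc

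The ID1 window lies upstream of the gene except for 6 bases in its first exon, and it holds 2 overlapping TATAAA matches on opposite strands, which begin 33 and 31 bases before the start. The table holds 2 windows for GREM1. The one shown, with 30 bases in an exon, holds 2 matches to GGCGCC and 2 to GTCTG. The other (chr15:32718234-32718483) had 66% G and C, 23 CpG and 1 match to GTCTG, 121 bases before its start, with none to GGCGCC. The INHBA window lies inside the annotated span of INHBA in GENCODE release 29, with 18 bases in an exon, and holds TATAAA 11 bases before the start. The 3 windows shown differ in base composition. INHBA had 42.8% G and C and 1 CpG, GREM1 76.8% and 32 CpG, and ID1 66% and 19 CpG, against a median of 11 CpG over the 35116 promoters in the table. Over those promoters, GGCGCC was found in 16.4%, GTCTG in 38.0%, TATAAA in 10.7%, TGANTCA in 6.57% and TGACGTCA in 1.65%. Of the 9 members with a promoter, 2 had GGCGCC, 4 had GTCTG, 3 had TATAAA, 1 had TGANTCA and 0 had TGACGTCA. A member was counted if any of its windows matched, whereas the percentages are of single windows. BMP4 has 3 windows and GREM1 has 2, and these were the 2 members with GGCGCC, so the counts and percentages are unlike. A match describes the letters in the window and is not evidence of binding.

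**Figure D1:**
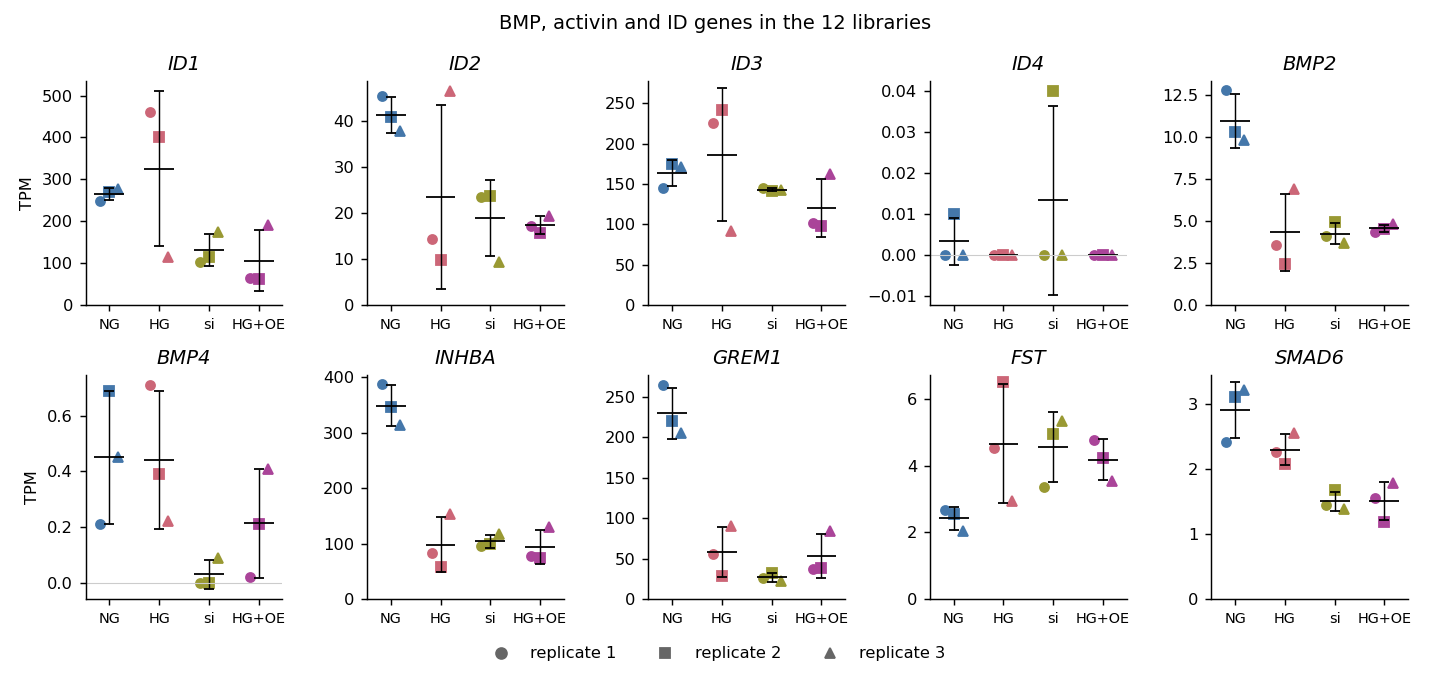
TPM (y axis, linear, a scale of its own for each gene) of the 10 members in the 12 libraries, by group on the x axis (si is si-FGF9 and HG+OE is HG+OE-FGF9). Points are libraries with a shape for each replicate number, the horizontal line is the mean and the bar is 1 SD on either side (n = 3). All NG points of BMP2, GREM1 and INHBA lie above all other points, and the HG points of ID1, ID2 and ID3 are split between replicate 3 and the others.

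ID1 (ENSG00000125968, chr20:31605283-31606515 on GRCh38) encodes an inhibitor of DNA binding that is switched on early by BMP. Its RNA was at 249.49, 269.87 and 276.70 TPM in NG and at 460.18, 402.18 and 114.29 TPM in HG. It was at 103.90, 115.66 and 174.77 TPM in si-FGF9 and at 64.81, 63.14 and 190.14 TPM in HG+OE-FGF9. HG replicates 1 and 2 were the 2 highest libraries of all, while HG replicate 3 lay below every NG library. All 6 si-FGF9 and HG+OE-FGF9 libraries lay below NG. ID1 did not pass the test in HG versus NG (log2 fold change 0.06, SE 0.50, limma adjusted p = 0.932). Without HG replicate 3, the log2 fold change was 0.70. Its log2 fold change in si-FGF9 versus NG was -1.04 with an unadjusted limma p of 0.0605, and the groups did not overlap. With median of ratios scaling that value was -0.01. ID1 was called lower in HG+OE-FGF9 versus HG by limma, with a log2 fold change of -1.58 (SE 0.50) at an unadjusted p of 0.00870, but its adjusted p was 0.0697. The groups overlapped there, because HG replicate 3 lay below HG+OE-FGF9 replicate 3. Leaving out HG replicate 1 or 2, HG+OE-FGF9 replicate 1 or 2, or any NG or si-FGF9 library ended the call. With the replicate 3 libraries of HG and HG+OE-FGF9 both left out, the log2 fold change was -2.73, a choice made after the data were seen.

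ID3 (ENSG00000117318, chr1:23557918-23559794) encodes another inhibitor of the family and followed ID1 over the libraries, at a Pearson's r of 0.897 over 12 libraries, given as a description of points that share libraries. It was at 144.60, 174.77 and 171.75 TPM in NG and at 225.74, 241.45 and 92.48 TPM in HG. In si-FGF9 it was at 144.81, 141.93 and 142.11 TPM, and in HG+OE-FGF9 at 101.23, 97.58 and 162.22 TPM. As for ID1, HG replicates 1 and 2 were the highest libraries, and for ID3 HG replicate 3 was the lowest of the 12. ID3 passed the test in none of the 3 comparisons, with log2 fold changes of 0.07, -0.19 and -0.55 in the order HG versus NG, si-FGF9 versus NG, HG+OE-FGF9 versus HG (SE 0.31 each). With the replicate 3 libraries of HG and HG+OE-FGF9 both left out, the last of these was -1.22 and past the threshold.

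ID2 (ENSG00000115738, chr2:8678845-8684453), also an inhibitor of E proteins, had another pattern. It was at 45.57, 40.93 and 37.82 TPM in NG and at 14.38, 9.79 and 46.60 TPM in HG. It was at 23.59, 23.76 and 9.43 TPM in si-FGF9 and at 17.13, 15.65 and 19.46 TPM in HG+OE-FGF9. HG replicate 3 was the highest of the 12 libraries, whereas HG replicates 1 and 2 were below every NG library. Its log2 fold change, HG versus NG, was -1.09 (SE 0.46, adjusted p = 0.0706) and for si-FGF9 versus NG it was -1.19 (SE 0.46, limma adjusted p = 0.0368, unadjusted p = 0.0247). Neither passed the unadjusted threshold of 0.01. The si-FGF9 versus NG value was -0.20 with median of ratios scaling and -0.45 with quantile normalization. Without HG replicate 3, the values were -1.72 and -1.19, and both passed. ID2 and ID1 had a Pearson's r of -0.02 over the 12 libraries. ID4 was listed at 0 in 10 of 12 libraries and at no more than 0.04 TPM in the others. ID1, ID2 and ID3 together summed to between 439.66 and 486.27 TPM in NG, between 253.37 and 700.3 in HG, between 272.3 and 326.31 in si-FGF9 and between 176.37 and 371.82 in HG+OE-FGF9. ID1 was 55.6% to 56.9% of that sum in NG, and 35.4%, 35.8% and 51.1% in HG+OE-FGF9. In si-FGF9 it was 38.2%, 41.1% and 53.6%, and in HG 65.71%, 61.55% and 45.11%.

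BMP2 (ENSG00000125845, chr20:6767664-6780280) encodes a BMP ligand. Its RNA was at 12.82, 10.30 and 9.84 TPM in NG and at 3.60, 2.48 and 6.92 TPM in HG. It was at 4.13, 4.94 and 3.71 TPM in si-FGF9 and at 4.37, 4.55 and 4.81 TPM in HG+OE-FGF9. Every NG library lay above every other library. BMP2 fell in HG versus NG (log2 fold change -1.25, SE 0.26, limma adjusted p = 0.00286) and in si-FGF9 versus NG (-1.19, SE 0.26, adjusted p = 0.00141). Leaving out HG replicate 2 gave -0.98 in HG versus NG, below the threshold. HG+OE-FGF9 and HG overlapped (log2 fold change 0.15, 95% confidence interval -0.42 to 0.72). BMP4, another ligand, reached at most 0.71 TPM, in HG replicate 1, and was listed at 0 in 2 si-FGF9 libraries.

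INHBA (ENSG00000122641, chr7:41667168-41705834) encodes the beta A chain of activin A and was the highest of the secreted members in NG. Its RNA was at 387.70, 346.73 and 313.26 TPM in NG and at 82.54, 58.13 and 153.12 TPM in HG. It was at 94.88, 98.42 and 118.23 TPM in si-FGF9 and at 78.04, 73.73 and 129.46 TPM in HG+OE-FGF9. The lowest NG library lay above the highest of the other 9, which was HG replicate 3. INHBA fell in HG versus NG (log2 fold change -1.93, SE 0.30, limma adjusted p = 0.00101) and in si-FGF9 versus NG (-1.74, SE 0.30, adjusted p = 0.000272). Its log2 fold change, HG+OE-FGF9 versus HG, was 0.01 (95% confidence interval -0.65 to 0.67).

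GREM1 (ENSG00000166923, chr15:32717974-32745107) encodes gremlin, a secreted inhibitor that binds BMP2 and BMP4. Its RNA was at 265.17, 219.67 and 204.85 TPM in NG and at 55.92, 28.20 and 90.11 TPM in HG. It was at 25.73, 32.56 and 22.32 TPM in si-FGF9 and at 37.24, 38.34 and 84.71 TPM in HG+OE-FGF9. NG did not overlap with any other group, and the replicate 3 libraries of HG and HG+OE-FGF9 were the highest of their groups. GREM1 fell in HG versus NG (log2 fold change -2.11, SE 0.38, limma adjusted p = 0.00165) and in si-FGF9 versus NG (-3.06, SE 0.38, adjusted p = 3.02e-05), the largest changes among the 8 members tested. Its log2 fold change, HG+OE-FGF9 versus HG, was -0.08 (95% confidence interval -0.92 to 0.76). The antisense gene GREM1-AS1 overlaps GREM1 and had 0.17 to 3.39 TPM, and the counting is not stated to use strand.

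FST (ENSG00000134363, chr5:53480409-53487134) encodes follistatin, which binds activin. It was low throughout, at 2.68, 2.56 and 2.03 TPM in NG and at 4.52, 6.50 and 2.94 TPM in HG. It was at 3.36, 4.96 and 5.34 TPM in si-FGF9 and at 4.77, 4.24 and 3.54 TPM in HG+OE-FGF9. All 9 libraries outside NG lay above the 3 NG libraries. Its log2 fold change, HG versus NG, was 0.68 (SE 0.24, limma adjusted p = 0.0366) and for si-FGF9 versus NG it was 0.68 (SE 0.24, adjusted p = 0.0248), below the fold threshold in both. For HG+OE-FGF9 versus HG it was -0.08.

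SMAD6 (ENSG00000137834, chr15:66702228-66782848) encodes an inhibitory SMAD that BMP induces and that dampens the BMP receptors. It was at 2.42, 3.10 and 3.21 TPM in NG and at 2.26, 2.08 and 2.55 TPM in HG. It was at 1.45, 1.67 and 1.39 TPM in si-FGF9 and at 1.55, 1.19 and 1.78 TPM in HG+OE-FGF9. The si-FGF9 and HG+OE-FGF9 libraries were all below those of NG and HG. HG differed from NG by a log2 fold change of -0.24, si-FGF9 from NG by -0.64 (SE 0.17, limma adjusted p = 0.00452) and HG+OE-FGF9 from HG by -0.40 (limma adjusted p = 0.144). Each was below the fold threshold of 1. The value for si-FGF9 versus NG turned to 0.06 with median of ratios scaling and to 0.26 with quantile normalization.

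The limma fit on log2(TPM + 1) covered 14639 genes, those that reached 1 TPM in at least 3 libraries, and a gene was called at a log2 fold change of at least 1 and an unadjusted p under 0.01. In HG versus NG, 3 of the 8 members tested were called lower and 0 higher, where 22.7% of all genes tested were lower and 1.65% higher. For si-FGF9 versus NG, 3 were called lower and 0 higher, where 42.2% of all genes were lower and 5.36% higher. A share near that of all genes is no result about the members, and in si-FGF9 versus NG the members' share was below it. For HG+OE-FGF9 versus HG, 1 member was lower and 0 higher, where 2.67% of all genes were lower and 2.94% higher. The median log2 fold change of the 8 members was -0.67, -1.12 and -0.10 in the 3 comparisons, beside -0.39, -0.79 and -0.13 over all genes tested.

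**Figure D2:**
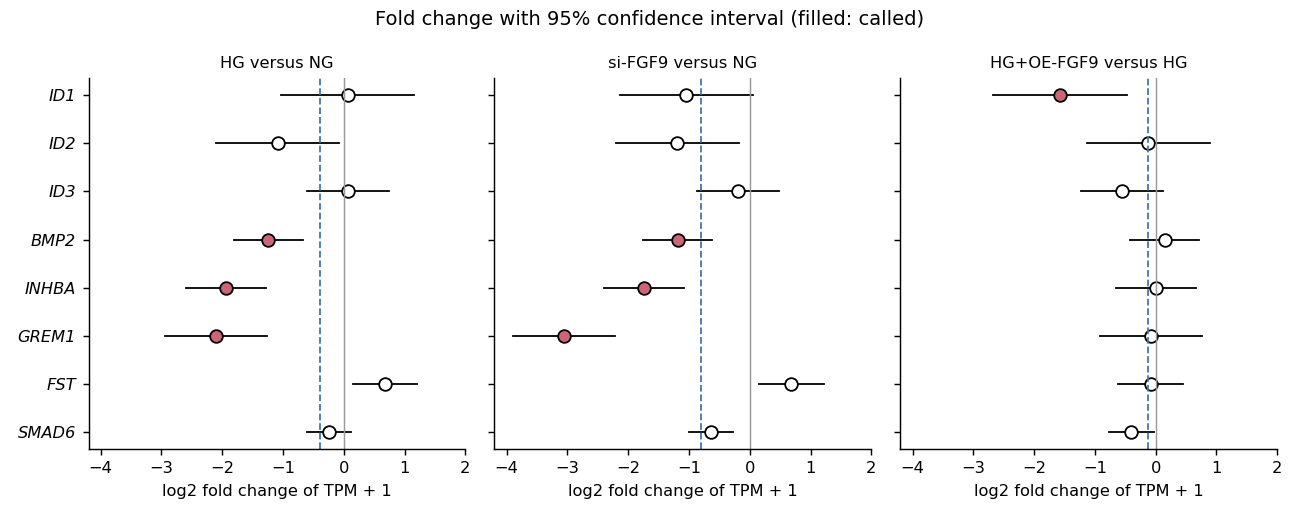
Log2 fold change of TPM + 1 (x axis) of the 8 members tested (y axis) in the 3 comparisons, with 95% confidence intervals from limma. Filled circles are called genes, the grey line is 0 and the dashed line is the median of all genes tested, at -0.39, -0.79 and -0.13. BMP2, INHBA and GREM1 lie left of the dashed line in the first 2 panels, and ID1 is the called gene in the last.

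Since the median of all genes moved, the fold changes depend on how the libraries are scaled. Median of ratios scaling brought the medians to 0.02, 0.02 and -0.02, and turned 242 higher and 3328 lower genes in HG versus NG into 1069 and 1247. It turned 785 higher and 6181 lower genes in si-FGF9 versus NG into 2788 and 2602, and 430 and 391 in HG+OE-FGF9 versus HG into 505 and 284. GREM1 kept its call in both comparisons under median of ratios scaling, quantile normalization and GC correction, and with the first of these it was -1.59 in HG versus NG and -2.04 in si-FGF9 versus NG. INHBA was -1.42 and -0.71 under that scaling, the latter not called. BMP2 was -0.79 and -0.29, neither called. FST was 1.02 and 1.46, both called higher. A correction for GC content gave -1.06 and -1.48 for GREM1, -0.86 and -0.13 for INHBA, -1.02 and -0.65 for BMP2, and 1.30 and 1.71 for FST. The GC content of GREM1 and INHBA transcripts was 39.8% and 39.1%, beside a median of 48.3% over the genes tested, and it was 52.1% for BMP2 and 45.1% for FST.

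**Figure D3:**
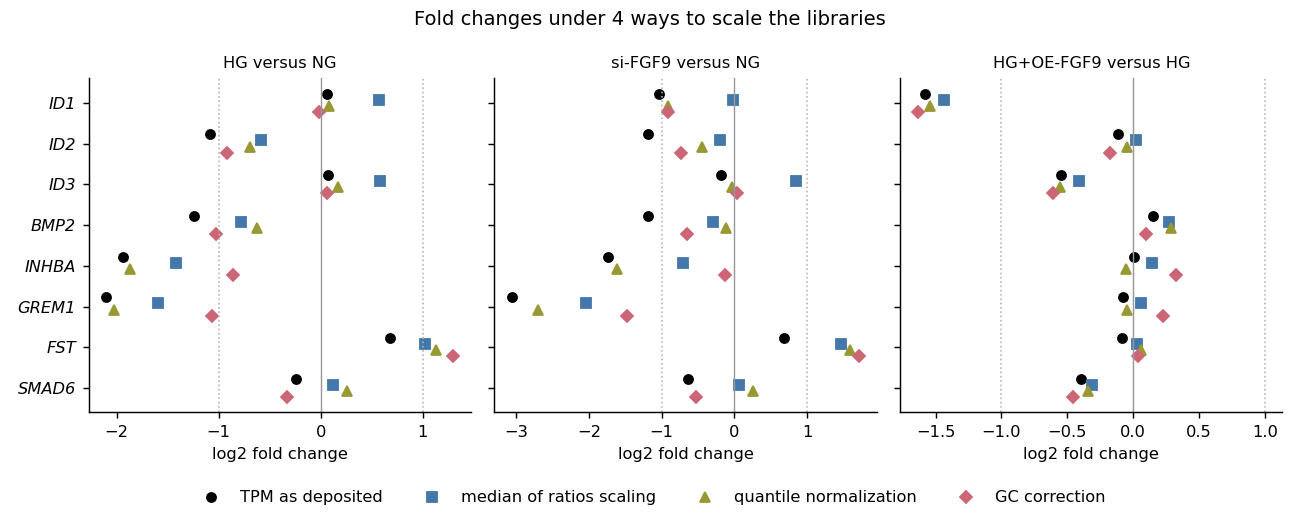
Log2 fold change (x axis) of the 8 members tested (y axis) in the 3 comparisons from TPM as deposited, after median of ratios scaling, after quantile normalization and after a correction for GC content. Dotted lines mark the fold threshold of 1. In si-FGF9 versus NG, INHBA ranges from -1.74 to -0.13 and FST from 0.68 to 1.71, and GREM1 stays below -1 in the first 2 panels.

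Ratios of 2 members within a library do not change with the scaling of the whole library. They can change under quantile normalization and GC correction, which do not shift all genes alike. The ratios given here are of TPM as deposited. In si-FGF9 versus NG after GC correction, INHBA had a log2 fold change of -0.13 and FST 1.71. In HG versus NG these values were -0.86 and 1.30. Of the 5 ratios planned, the 2 with BMP4 were left out because it was below 1 TPM. INHBA was 145, 135 and 154 times FST in NG. It was 18.3, 8.94 and 52.1 times FST in HG, 28.2, 19.8 and 22.1 times in si-FGF9 and 16.4, 17.4 and 36.6 times in HG+OE-FGF9. All 9 libraries outside NG were below NG. The mean log2 ratio differed by -2.82 in HG versus NG and by -2.64 in si-FGF9 versus NG, each with an exact two-sided permutation p of 0.1, the smallest that 3 against 3 libraries can give, and 0.225 after adjustment over the 9 ratio tests. The difference between HG+OE-FGF9 and HG was 0.10 (exact permutation p = 1).

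ID1 was 1.73, 1.54 and 1.61 times ID3 in NG and 2.04, 1.67 and 1.24 times in HG. It was 0.717, 0.815 and 1.23 times ID3 in si-FGF9 and 0.640, 0.647 and 1.17 times in HG+OE-FGF9. The si-FGF9 libraries did not overlap with NG (difference in log2 ratio -0.86), nor the HG+OE-FGF9 libraries with HG (-1.04), and both had an exact permutation p of 0.1. HG and NG overlapped (difference -0.01). For ID1 to ID2, ratios of 32.0 and 41.1 in HG replicates 1 and 2 stood beside 2.45 in HG replicate 3, and the groups overlapped in all 3 comparisons.

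**Figure D4:**
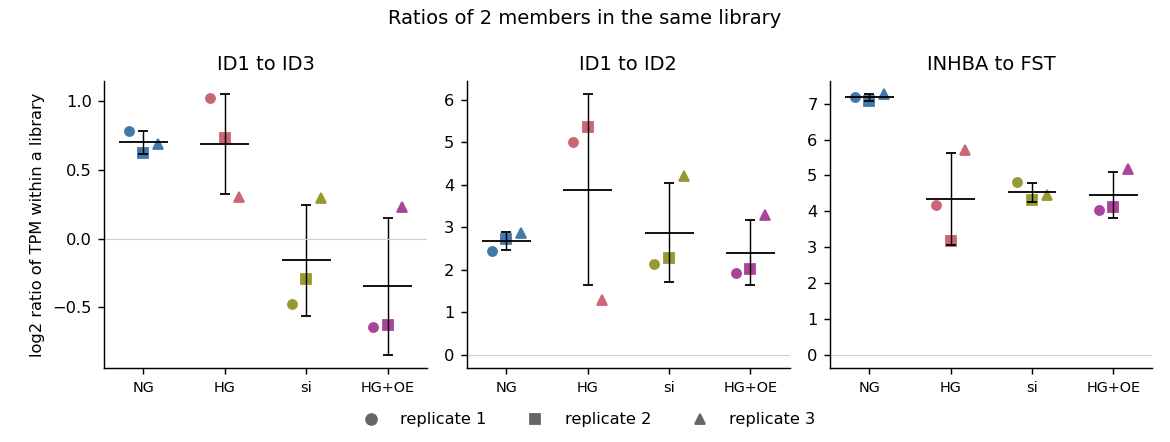
Log2 ratio of the TPM of 2 members in the same library (y axis) by group (x axis). Points are libraries with a shape for each replicate number, with the mean and 1 SD (n = 3). The INHBA to FST ratios of NG, near 7 on the log2 scale, lie above all others, and ID1 to ID2 separates HG replicate 3, at 1.29, from HG replicates 1 and 2, at 5.00 and 5.36.

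The order of the group means placed NG first for ID2, BMP2, GREM1, INHBA and SMAD6, HG first for ID1 and ID3, and NG last for FST. Among the 3 groups other than NG, the 1 call was ID1 in HG+OE-FGF9 versus HG. In si-FGF9 versus HG, 0 of 8 members were called, where 9.67% of all genes were lower and 1.40% higher. The largest log2 fold change there was that of ID1, at -1.11 (limma adjusted p = 0.106), and without HG replicate 3 ID1 was called lower at -1.74. Without HG replicate 2, GREM1 was called lower at -1.39. For si-FGF9 versus HG+OE-FGF9, 0 members were called, where 7.36% of all genes were lower and 1.65% higher, and GREM1, at -0.87 (limma adjusted p = 0.116), was the member farthest from 0. HG+OE-FGF9 versus NG had 3 members called lower, where 32.7% of all genes were lower and 7.01% higher. They were BMP2 at -1.10, GREM1 at -2.18 and INHBA at -1.93. GC correction ended all 3 of these calls, with BMP2 at -0.93, GREM1 at -0.84 and INHBA at -0.54. BMP2 was also not called with median of ratios scaling (-0.51) or quantile normalization (-0.34). ID1 was -1.52 there with an unadjusted limma p of 0.0109, just outside the threshold. It was called lower at -1.65 after GC correction and was not called at -0.86 with median of ratios scaling. FST was 0.60 on TPM as deposited and not called. It was called higher at 1.34 after GC correction, 1.05 with median of ratios scaling and 1.19 with quantile normalization. These comparisons share groups with those above and are no independent support for them.

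Of 76 other genes of the pathway, 43 were tested and 8 were listed at 0 in every library. For HG versus NG, 18 were called lower and 1 higher, with a median log2 fold change of -0.85. For si-FGF9 versus NG, 24 were lower and 0 higher, with a median of -1.18. HG+OE-FGF9 versus HG had 3 lower and 2 higher, with a median of -0.35. The medians of all genes were -0.39, -0.79 and -0.13. The shares of all genes called lower were 22.7%, 42.2% and 2.67%, and those called higher were 1.65%, 5.36% and 2.94%. After GC correction the counts called in either direction were 4, 13 and 6. Of all 14191 genes in that fit, 434, 1701 and 309 were lower and 536, 1751 and 430 higher.

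The transducers of the signal come first. Of the 9 SMADs and their ubiquitin ligases and co-repressors, 7 were called lower in HG versus NG and 9 in si-FGF9 versus NG, and 0 were called in HG+OE-FGF9 versus HG, where 22.7%, 42.2% and 2.67% of all genes were lower. After GC correction these counts were 1, 5 and 0, where 434, 1701 and 309 of 14191 genes were lower. SKIL, a repressor that binds SMADs, was at 19.32, 20.19 and 19.52 TPM in NG and at 4.35, 2.47 and 7.21 TPM in HG (log2 fold change -1.95, limma adjusted p = 0.000741). In si-FGF9 it was at 2.25, 2.35 and 1.44 TPM (-2.79). SMURF2, a ubiquitin ligase for SMADs and their receptors, was at 15.05, 16.28 and 13.86 TPM in NG and at 1.38, 1.57 and 1.20 TPM in si-FGF9 (-2.75). Neither gene overlapped between NG and these groups.

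Of the 11 receptors and co-receptors tested, 4 were lower and 1 higher in HG versus NG and 6 were lower in si-FGF9 versus NG, beside the same 22.7% and 42.2% of all genes lower, and 1.65% higher in the former. The 1 higher was ENG, which encodes endoglin, a co-receptor. It was at 1.12 to 1.5 TPM in NG and at 4.81, 6.03 and 1.61 TPM in HG (log2 fold change 1.05, limma adjusted p = 0.0163), with HG replicate 3 next to NG. This call was lost with GC correction, with the replicate block, with only the 6 libraries of the comparison, and without any 1 NG library or HG replicate 1 or 2. Of the 3 E proteins that ID proteins bind, TCF12 was lower in HG versus NG, at 15.36, 14.47 and 12.99 TPM in NG and 2.10, 0.82 and 5.54 TPM in HG (-2.19), and it was also called lower in si-FGF9 versus NG. Among 8 other BMP responsive genes tested, 2 were lower in each of these comparisons, with the same background. One was RUNX2, a transcription factor of bone, at 35.22, 32.20 and 30.42 TPM in NG and 7.50, 5.80 and 12.38 TPM in HG (-1.87).

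Among 9 secreted inhibitors tested, 4 were lower in HG versus NG and 4 in si-FGF9 versus NG, where 22.7% and 42.2% of all genes were lower, so the latter count is near the background and is no result about these inhibitors. CHRDL1, a chordin-like BMP inhibitor, was at 96.00, 96.55 and 90.94 TPM in NG and at 11.95, 15.32 and 8.83 TPM in si-FGF9 (log2 fold change -2.90, limma adjusted p = 4.62e-05). It was at 33.12, 18.91 and 51.09 TPM in HG and at 6.91, 7.11 and 19.74 TPM in HG+OE-FGF9, and it fell again in HG+OE-FGF9 versus HG (-1.58, limma adjusted p = 0.0274), where the groups overlapped. CRIM1, a membrane protein that binds BMPs, also fell there (-1.16, adjusted p = 0.0234), without overlap. ATOH8, a BMP responsive transcription factor, was called lower at -1.06 with a limma adjusted p of 0.0572, and its groups overlapped.

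The 2 higher genes in HG+OE-FGF9 versus HG, where 2.94% of all genes were higher, were INHBE and DAND5. INHBE encodes the beta E chain of activin and was at 5.89, 5.53 and 18.27 TPM in HG and at 18.99, 20.06 and 23.83 TPM in HG+OE-FGF9 (log2 fold change 1.20, limma adjusted p = 0.0423). DAND5, a secreted inhibitor of the gremlin family, was at 0.44, 0.40 and 0.58 TPM in HG and at 2.90, 3.05 and 1.01 TPM in HG+OE-FGF9. DAND5 reached 1 TPM only in the HG+OE-FGF9 libraries, so it passed the filter through the group where it was high, and its values are a description. HG replicate 3 lay next to HG+OE-FGF9 for INHBE, and HG+OE-FGF9 replicate 3 next to HG for DAND5. Without HG+OE-FGF9 replicate 3, 0 pathway genes were called higher, but DAND5 then failed the filter on low values and was not tested. With HG replicate 3 left out as well, a choice made after the data were seen, 1 ligand was called higher.

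**Figure D5:**
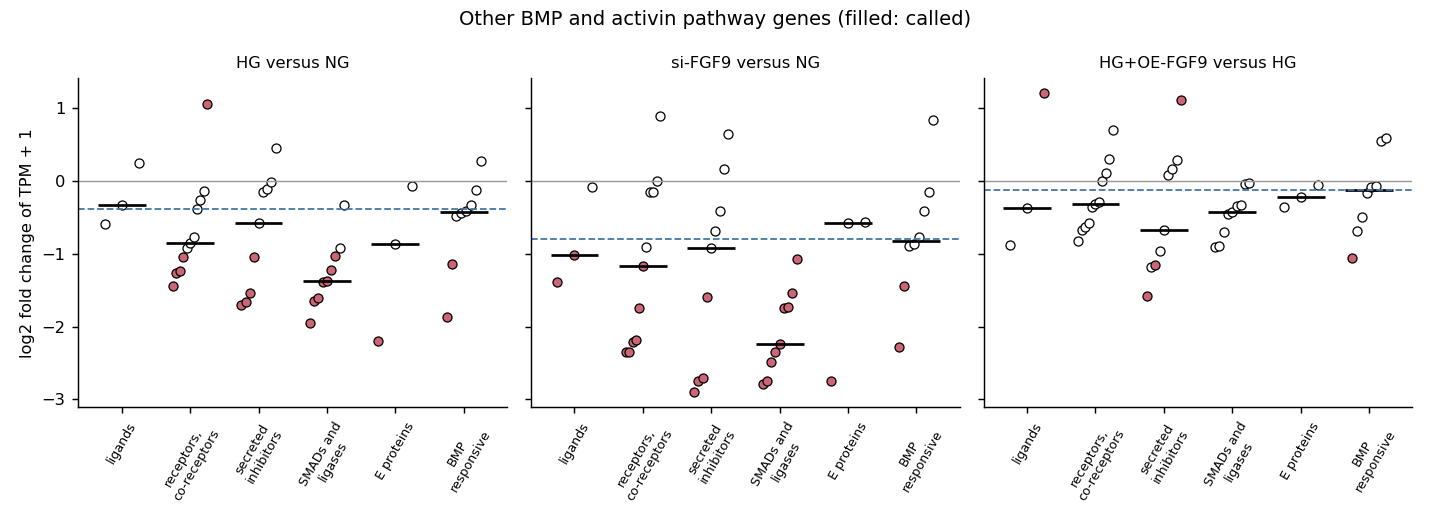
Log2 fold change of TPM + 1 (y axis) of the 43 other pathway genes tested, by role (x axis), in the 3 comparisons. Filled circles are called genes, black lines are the medians of each role, the grey line is 0 and the dashed line is the median of all genes tested. The SMADs and ligases have the lowest median in the first 2 panels, at -1.37 and -2.24.

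The genes whose pattern over the 12 libraries was most like that of each member were found among 5826 protein-coding genes, by Pearson's r of log2(TPM + 1), and are given as a description. For ID1 they included IFI27 (0.970), and for ID3 they were UNC119 (0.988) and TNS2 (0.919). For ID2 they were TIPARP (0.963) and JUN (0.957). For BMP2 they were CTSL (0.993) and SLC30A1 (0.988), for GREM1 HSPA13 (0.996) and NUDCD1 (0.995), and for INHBA ACAD11 (0.975) and LITAF (0.975). For FST they were CNPY3 (0.944) and KPTN (0.942), and for SMAD6 ABI2 (0.978) and CPA4 (0.963). FST ran opposite to INHBA over the 12 libraries, at a Pearson's r of -0.85, and BMP2 ran with INHBA at 0.952.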

How the data were processed

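RNA of HK2 cells was sequenced in 12 libraries, grouped by their labels. The authors deposited TPM per Ensembl gene, to 2 decimals, with no counts, so depth and counting error are unknown and precision was judged from 3 libraries per group. The submitters' processing notes name Bowtie 0.12.2 and mm8, a mouse build, although the identifiers are human. Nothing states that the libraries came from separate cultures, so p-values measure the spread between these samples, which may be technical.

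Fits used limma 3.58.1 in R 4.3.3 with a variance trend on log2(TPM + 1), all 12 libraries and the group as the only term, with genes of TPM at least 1 in 3 libraries. Fold changes on this scale understate those of low genes. Calls used the study's thresholds, with Benjamini-Hochberg adjusted p over all genes. The fit was tested on simulated data. Exact permutation tests used SciPy 1.17.1. GC content came from the longest transcript in GENCODE release 29 (96.9% of genes tested), and promoters from RefSeq. Members and lists were chosen with earlier results of these data known. Named pathway genes are the 3 with the largest fold change in each direction among those called per comparison. The like-pattern genes have a mean TPM of at least 10. Some genes these rules name are not reported here.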

Additional observations from a re-analysis of the deposited data

How the results depend on the processing

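The alternatives were 13 settings of the fit, each of the 12 libraries left out in turn, and, chosen after the data were seen, HG replicate 3 and HG+OE-FGF9 replicate 3 both left out. The single-member values in the 3 study comparisons numbered 624 over all alternatives, of which 576 kept their side of the threshold, 29 lost a call and 19 gained one. None changed sign while called, and 34 changed sign without being called. Many of these settings, such as another p threshold or a library left out from outside the comparison, leave the fold change as it was. There the sign could not change and only the p-value could move, so these counts are no measure of stability. Members called in HG versus NG stayed between 2 and 4 when single libraries were left out, in si-FGF9 versus NG between 3 and 4, and in HG+OE-FGF9 versus HG between 0 and 1. Pathway genes called ranged from 14 to 19, 23 to 24 and 3 to 7. In si-FGF9 versus NG, 5 members were called with only the 6 libraries of the comparison, and 5 with both of these left out, since ID1 and ID2 were added. In HG+OE-FGF9 versus HG, 0 members were called with no filter on low values, only the 6 libraries, adjusted p under 0.05, median of ratios scaling or no variance trend, and 2 with both of these left out. With unadjusted p under 0.05, 1 was called. Pathway genes called in HG versus NG were 9 with median of ratios scaling, 9 with quantile normalization and 4 with GC correction, against 19. Over all genes, those settings gave 1247, 1220 and 434 lower, against 3328, and 1069, 1016 and 536 higher, against 242. In si-FGF9 versus NG, pathway genes called were 14 with TPM of at least 1 in all 12 libraries and 13 with GC correction, against 24. Over all genes, these settings gave 4115 and 1701 lower, against 6181, and 598 and 1751 higher, against 785. The first of these settings tested 9903 genes, against 14639, so its lower counts include genes that were no longer tested. In HG+OE-FGF9 versus HG, 3 pathway genes were called with TPM of at least 1 in all 12 libraries, against 5. With only the 6 libraries 3 were called, and with pseudocount 0.1, 9. All genes called lower in these settings were 314, 258 and 694, against 391, and higher 114, 395 and 479, against 430. The genes tested in them were 9903, 13169 and 14639, so the first 2 also lost genes from testing. The labels do not say whether replicate numbers pair the samples. Of 18 correlations between same-numbered libraries, of deviations from group means, 3 exceeded 0.1 (range -0.44 to 0.25). With 3 libraries per group, these values cannot settle whether same-numbered libraries were handled together. With the replicate block, 0 members were called in HG+OE-FGF9 versus HG, and with GC correction and the replicate block 0. In the latter setting, pathway genes numbered 4 in HG versus NG and 13 in si-FGF9 versus NG. Over all genes, 433 and 1693 were lower there, and 535 and 1733 higher. The cause of these changes was not tested. The alternatives that need counts were not run, since the files hold TPM.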
